A study of Mus musculus with 6 samples.

Results

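The genes described here are 41 genes of the Atf4 program, the set of stress response, amino acid synthesis, amino acid transport and transfer RNA synthetase genes that the transcription factor Atf4 is known to control. They were chosen by name, with earlier results of these data known. Each matched 1 of the 41449 rows of the expression table, with a value in all 6 libraries. They fall into 13 regulators and feedback genes, 8 enzymes of amino acid synthesis, 8 amino acid transporters and 12 cytosolic tRNA synthetases. RNA came from microdissected lenses of mice aged 2 months, with 2 lenses in each library. The 3 wild-type (WT) libraries were from strain C57BL/6, and the 3 fibronectin conditional knockout (FNcKO) libraries were from mice of a mixed C57BL/6, 129 and FVB/N background. Genotype and strain background therefore cannot be told apart, and the labels name no Cre driver. Libraries were made from total RNA with a stranded kit for very small inputs. Expression is given in FPKM, which corrects fragment counts for the length of a gene's transcripts and the depth of its library.

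Atf4 is the central transcription factor of the integrated stress response. Kinases that sense missing amino acids, misfolded protein, viral RNA or lack of heme phosphorylate the translation factor eIF2, which lowers protein synthesis in general while Atf4 messenger RNA is translated more. Atf4 then pairs with C/EBP proteins and switches on genes that take up, make and load amino acids, together with feedback genes that end the response. In the lens, amino acid uptake also feeds glutathione, the antioxidant that keeps the crystallins soluble, and most protein of a fiber cell is made before the cell loses its organelles.

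The DNA element that Atf4 and C/EBP proteins are known to bind together was looked for in the RefSeq promoter windows of these genes (GRCm38.p6, 250 bases before to 50 bases after a transcription start). The motif searched was TGATGNAA, which reads TTNCATCA on the opposite strand. It was present in 3.97% of 32851 windows and at 4.51% of the 27025 genes with a window. Windows were found for 34 of the 41 genes, and 13 of these (38.2%) held the motif: Trib3, Chac1, Nupr1, Vldlr, Asns, Pycr1, Slc7a11, Slc1a4, Aars, Gars, Iars, Tars and Yars. It was held by 5 of 8 synthetases with a window, but by 0 of 8 other cytosolic synthetases and scaffolds and 0 of 15 mitochondrial synthetases. A match of letters is a description and does not show binding. Eif4ebp1, Slc7a5, Slc1a5, Cars, Lars, Nars and Wars had no window.

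Slc7a11 and Tars are shown at length because they held the motif and also differed between genotypes in the test below, in opposite directions. Each stretch reads 5′ to 3′ toward the gene, from 250 to 8 bases before the start, with the motif in capitals. Slc7a11 lies on the minus strand of chromosome 3 (chr3:50443621-50443863) and Tars on the minus strand of chromosome 15 (chr15:11399666-11399908). The Slc7a11 start used by RefSeq here lies inside the table's row for the gene.
Slc7a11: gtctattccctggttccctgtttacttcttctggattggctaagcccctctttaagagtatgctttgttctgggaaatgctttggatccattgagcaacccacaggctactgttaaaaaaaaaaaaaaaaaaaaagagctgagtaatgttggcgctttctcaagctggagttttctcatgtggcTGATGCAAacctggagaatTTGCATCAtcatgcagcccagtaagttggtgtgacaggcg
Tars: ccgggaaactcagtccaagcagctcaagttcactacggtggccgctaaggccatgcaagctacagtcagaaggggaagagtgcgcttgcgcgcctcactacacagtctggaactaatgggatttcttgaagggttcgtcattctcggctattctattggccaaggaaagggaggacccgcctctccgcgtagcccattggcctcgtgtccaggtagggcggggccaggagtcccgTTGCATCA
The Slc7a11 stretch held the motif at 2 places, in opposite orientations, from 66 to 59 and from 47 to 40 bases before the start. In Tars it lay 15 to 8 bases before the start.

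For the other genes 30 bases around the motif show how similar the element is in genes whose RNA levels, given below, were very different in these lenses. Slc1a4 and Yars are shown because they were among the members with small unadjusted p-values, Gars and Nupr1 because their levels differed little, and Asns, Chac1 and Trib3 because they are textbook targets with little RNA here.
Slc1a4 (chr11:20332699-20332728, minus strand): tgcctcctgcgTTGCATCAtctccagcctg
Yars (chr4:129189895-129189924, plus strand): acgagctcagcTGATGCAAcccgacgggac
Gars (chr6:55037960-55037989, plus strand): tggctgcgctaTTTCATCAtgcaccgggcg
Nupr1 (chr7:126625562-126625591, minus strand): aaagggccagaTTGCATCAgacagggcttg
Asns (chr6:7693214-7693243, minus strand): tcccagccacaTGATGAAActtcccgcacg
Chac1 (chr2:119351038-119351067, plus strand): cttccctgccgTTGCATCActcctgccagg
Trib3 (chr2:152344028-152344057, minus strand): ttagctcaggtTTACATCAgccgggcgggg
The motif lay across the start in Slc1a4 and just after it in Yars and Trib3, while in the other 4 it lay before the start. Of the 9 tested genes with the motif, 8 had log2 changes above 0, with a median of 0.13 and a range from -0.58 to 0.46. Of the 19 tested genes with a window and no motif, 15 had log2 changes above 0, with a median of 0.17 and a range from -0.17 to 0.60. The changes of the 2 sets overlapped over most of their range, and 39.7% of all genes tested had log2 changes above 0.

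Between 57.0% and 71.8% of the low values examined in each library lay within 0.15 of a whole multiple of a step, which corresponds to between 13500000 and 16200000 fragments for WT libraries and between 10200000 and 10900000 for FNcKO libraries, or to a whole multiple of these numbers. Fn1, the targeted gene, was listed at 0.135 to 0.253 FPKM in WT and 0.0482 to 0.128 FPKM in FNcKO, a value for the whole gene that does not show whether the deleted part was present. Markers of the lens fiber were high in every library (summed 197000 to 207000 FPKM in WT and 202000 to 216000 FPKM in FNcKO). Those of the lens epithelium summed to 25100 to 27500 and 24700 to 28400 FPKM, almost all of it the crystallin Cryab (means of 25040 and 25130 FPKM). Within that list Cd24a had means of 838 and 1008 FPKM, Pax6 of 19.3 and 19.5 FPKM and Foxe3 of 12.4 and 10.1 FPKM, and Cdk1 lay below 1 FPKM. Epha2 was the only marker of that list past the test, with means of 5.741 FPKM in WT and 8.335 FPKM in FNcKO (log2 change 0.47, limma adjusted p = 0.0422). Photoreceptor markers summed to 30.9 to 86.9 and 43.3 to 46.0 FPKM with 1 of 12 tested log2 changes above 0, pigment cell markers to 11.6 to 19.0 and 6.67 to 8.46 FPKM with 0 of 2 above 0, and markers of the ciliary body and iris to 391 to 399 and 370 to 431 FPKM with 3 of 4 above 0. Of all genes tested, 39.7% were above 0. The ciliary body and iris sum is mostly Mgarp and leaves out Zic1 and Cldn2, which have no value in WT replicate 2. Within that list Aqp1 rose from 5.27 ± 0.991 to 15.6 ± 3.96 FPKM (mean ± SD of 3 libraries each; log2 change 1.39, limma adjusted p = 0.0432), while Optc was at 18.3 ± 3.58 and 42.9 ± 9.93 FPKM (log2 change 1.18, adjusted p = 0.0682), both larger than the log2 change of any member. Which tissue the Aqp1 and Optc RNA came from was not tested. The low end of the photoreceptor sum in WT is replicate 2. The sum leaves out Gnat1, which has no value in that library and fell by 1.05 on the log2 scale (means of 20.6 FPKM in 2 WT and 9.42 FPKM in 3 FNcKO libraries, limma adjusted p = 0.0215). Summed corneal markers were at 25.7 to 30.7 and 13.6 to 43.4 FPKM, almost all of it Aldh3a1, with Kera and Krt12 listed at 0. Red blood cell markers summed to 6.78 to 8.64 and 8.01 to 9.73 FPKM, mostly Bpgm, with Hba-a1, Hba-a2, Hbb-bs and Hbb-bt each below 1 FPKM. Endothelial markers summed to 1.17 to 1.38 and 1.35 to 2.00 FPKM, mostly Egfl7, with Cdh5 listed at 0. The 8 macrophage and leukocyte markers, each with a mean below 1 FPKM, summed to 1.59 to 2.83 and 0.642 to 1.81 FPKM. Crystallins took 22.6% to 24.5% of the summed FPKM in WT and 28.9% to 37.1% in FNcKO. The summed FPKM itself was lower in FNcKO (1251386 to 1519627) than in WT (1631865 to 1725738). The part of these differences in the results below was not tested. In whole lenses, fewer cells of a type and less RNA per cell cannot be told apart.

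FNcKO lenses had more RNA of Atf4 itself, of the large neutral amino acid transporter Slc7a5 and of the threonine tRNA synthetase Tars, and less of the cystine transporter Slc7a11. These were the 4 members past limma's test (adjusted p 0.05 over all 10149 genes whose mean reached 1 FPKM), 3 higher and 1 lower, of 34 members tested. Among all genes tested 1.89% passed, 0.857% higher and 1.03% lower. The differences were between 1.45-fold and 1.68-fold. At an unadjusted p under 0.05 there were 10 members higher and 1 lower, where the shares of all genes were 6.74% and 11.4%. WT and FNcKO values did not overlap for 16 members, 14 higher and 2 lower, against 25.6% of all genes, 9.31% higher and 16.3% lower.

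The members leaned to higher values in FNcKO as a group. They were chosen with earlier results of these data known, so the lean is a description only. Log2 changes were above 0 for 27 of the 34 (79.4%), against 39.7% of all genes tested. With the same FPKM total in every library the shares were 97.1% and 79.8%, and with the total taken without crystallins 97.1% and 90.6%, so the gap between them was narrower. As deposited, the members' median log2 change was 0.15, and that of all genes was -0.04. The 7 members under 1 FPKM, which were not tested, included Asns, Chac1, Trib3 and Sesn2.

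**Figure D1:**
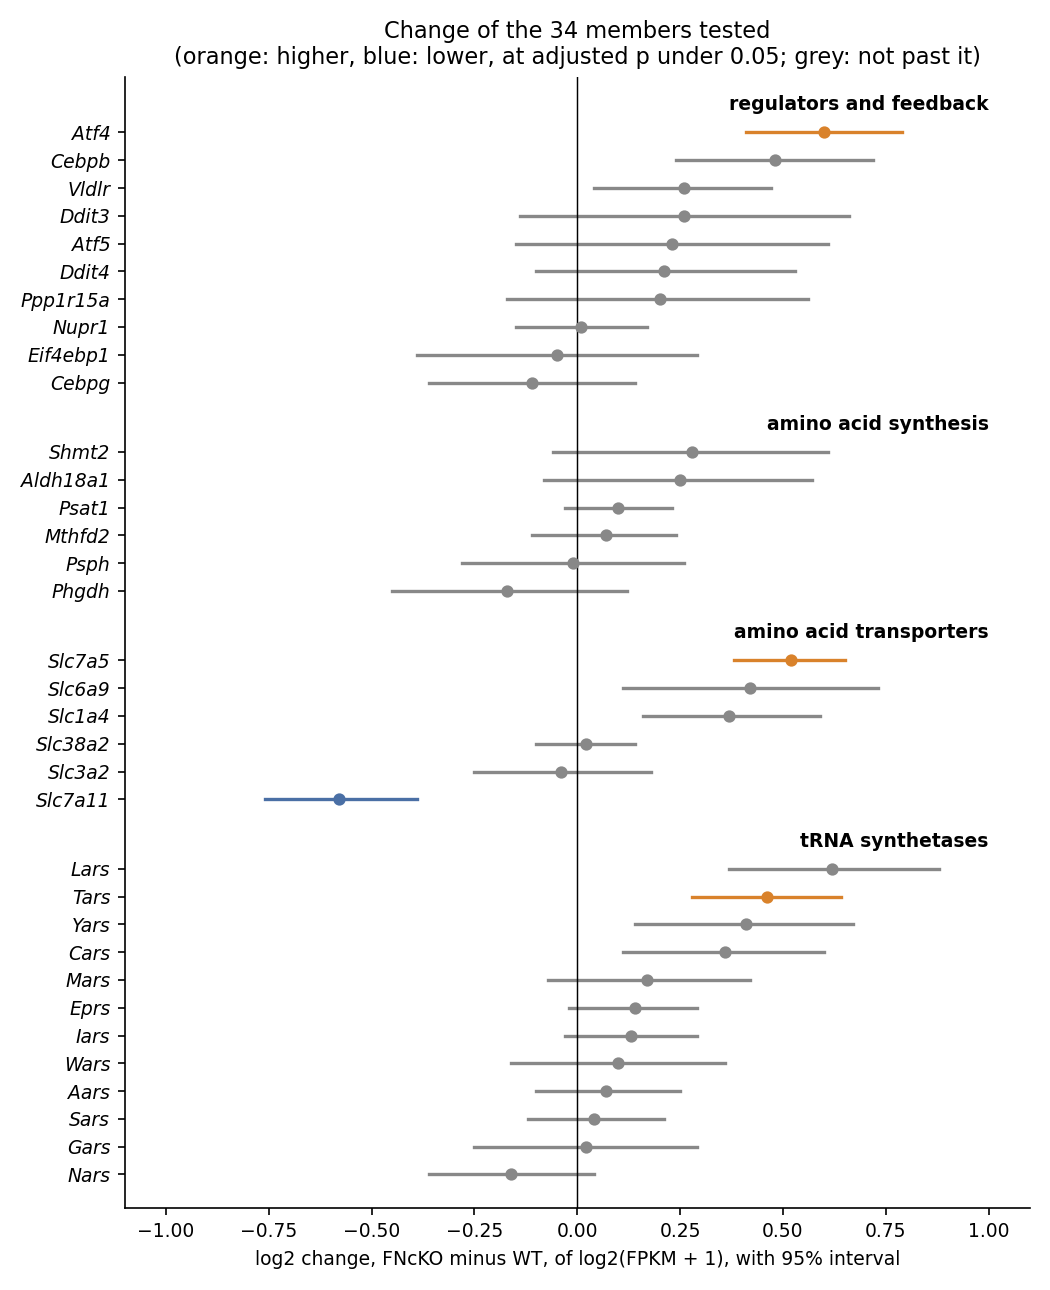
Log2 change (FNcKO minus WT, of log2(FPKM + 1), horizontal axis) of the 34 tested members in their 4 groups; points are limma estimates and lines their 95% intervals, with orange for higher, blue for lower and grey for not past adjusted p 0.05. Atf4, Slc7a5 and Tars stand to the right and Slc7a11 stands to the left, while the intervals of most other members cross 0.

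Among the regulators, Atf4 (chromosome 15, 80255184 to 80257545, GRCm38) had levels of 25.6, 21.8 and 24 FPKM in the WT libraries, listed here and below in the order of replicates 1 to 3, against 38.4, 35.8 and 35.5 FPKM in FNcKO. All 3 FNcKO libraries lay above all 3 WT libraries, by more than the spread within either group. The means were 23.8 ± 1.94 and 36.5 ± 1.59 FPKM (mean ± SD of 3 libraries each), 1.53-fold higher in FNcKO (log2 change 0.60, SE 0.079, adjusted p = 0.0315). Atf4 ranked above 89.3% of the tested genes by level. Its protein is controlled mostly by translation, which these data do not measure.

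Cebpb, a C/EBP factor that pairs with Atf4 (chromosome 2, 167688915 to 167690432), was at 1.92, 2.46 and 1.86 FPKM in WT and 3.47, 3.37 and 2.99 FPKM in FNcKO. The groups did not overlap, and the means differed 1.58-fold, but the gene missed the threshold over all genes (log2 change 0.48, SE 0.099, adjusted p = 0.0805). Cebpg, the partner of Atf4 with no activation domain of its own, was at 2.01 ± 0.296 and 1.79 ± 0.184 FPKM (mean ± SD of 3 libraries each; log2 change -0.11, adjusted p = 0.635). The related factor Atf5 was at 1.57 to 2.67 FPKM in WT and 2.64 to 2.99 FPKM in FNcKO (adjusted p = 0.497). WT replicate 2 was the low library for Atf5, and the groups overlapped.

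Ddit3, the proapoptotic factor CHOP, was at 12.9, 10.5 and 11.5 FPKM in WT and 11.1, 17.2 and 14.7 FPKM in FNcKO (log2 change 0.26, SE 0.164, adjusted p = 0.462). The FNcKO libraries spread widely, with replicate 1 inside the WT range. The Ddit3 row shares 71 bases with that of Mars, the neighbouring gene, so fragments there cannot be assigned with certainty. Ppp1r15a, the phosphatase subunit that removes the phosphate from eIF2, was at 24.7 to 26 FPKM in WT and at 34.4, 31.4 and 23.0 FPKM in FNcKO (adjusted p = 0.547). In FNcKO replicate 3 it lay below every WT library, while the other two lay above.

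Nupr1, a small stress-induced chromatin protein, was by far the most abundant member. It stood at 503, 491 and 501 FPKM in WT and 503, 487 and 516 FPKM in FNcKO, above 98.5% of the tested genes. The libraries varied by 1.34% (coefficient of variation) in WT and 2.98% in FNcKO, and the log2 change was 0.01 with a 95% interval from -0.15 to 0.17. With quantile normalization it was 0.30, with the same FPKM total 0.26 and with the total taken without crystallins 0.44, none past the test. The row of the predicted gene Gm39087 covers the whole Nupr1 row, with a mean of 0 FPKM in WT and 0.359 FPKM in FNcKO.

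The very low density lipoprotein receptor Vldlr was at 2.1, 1.64 and 1.79 FPKM in WT and 2.44, 2.21 and 2.54 FPKM in FNcKO. The groups did not overlap, though the difference of 1.30-fold missed the threshold (log2 change 0.26, SE 0.088, adjusted p = 0.214). Ddit4, an inhibitor of the growth kinase mTORC1, was at 1.35 ± 0.178 and 1.73 ± 0.401 FPKM, and Eif4ebp1, a repressor of cap-dependent translation, at 5.45 ± 0.758 and 5.24 ± 0.973 FPKM (mean ± SD of 3 libraries each; adjusted p = 0.453 and 0.885). Both groups overlapped for these 2 genes.

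Chac1, Trib3 and Sesn2 were below the filter on low values. Chac1, which degrades glutathione, was listed at 0.0901, 0 and 0 FPKM in WT and 0.201, 0.0677 and 0.0721 FPKM in FNcKO, about 2.1 fragments in WT replicate 1 and 3.1, 1.0 and 1.1 in FNcKO at the depth of 1 step. Trib3, a pseudokinase that restrains Atf4, was listed at 0 in 5 libraries and at 0.05 FPKM, about 1.0 fragment, in FNcKO replicate 2. Sesn2, a leucine sensor, was at 0.224 to 0.301 FPKM in WT and 0.0802 to 0.226 FPKM in FNcKO. Sesn2 rested on about 10.7 to 13.3 fragments per WT library and on 2.7 to 8.0 per FNcKO library, and none of the 3 passed in the fit without the filter.

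**Figure D2:**
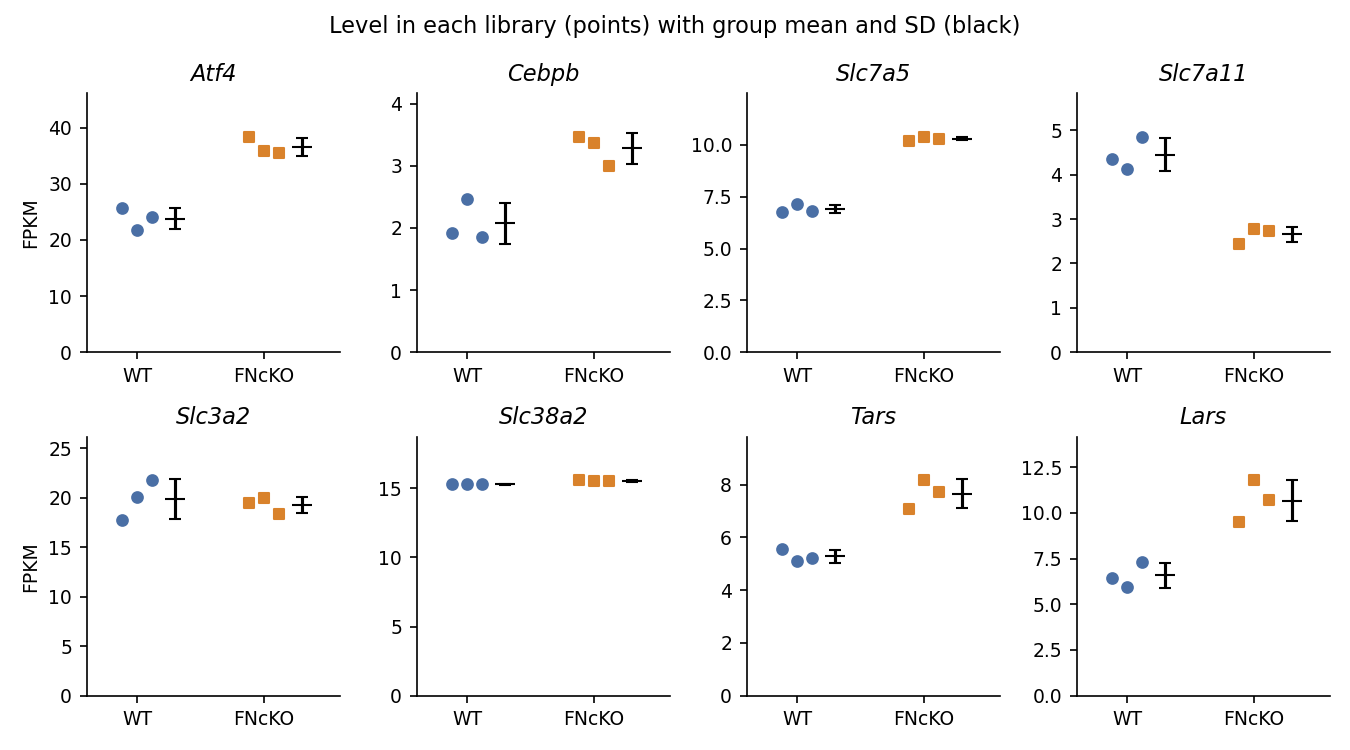
FPKM (vertical axis, starting at 0) of 8 members in each library, with WT as blue circles and FNcKO as orange squares in the order of replicates 1 to 3, and the group mean with SD in black. Atf4, Slc7a5, Tars and Lars lie higher in all 3 FNcKO libraries and Slc7a11 lies lower, while Slc3a2 overlaps between genotypes and Slc38a2 is nearly level in these deposited values.

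The amino acid transporters held the changes in both directions. Slc7a5 imports leucine and other large neutral amino acids in exchange for glutamine (chromosome 8, 121881146 to 121907686). It stood at 6.75, 7.15 and 6.82 FPKM in WT and 10.2, 10.4 and 10.3 FPKM in FNcKO. The 3 libraries of each genotype were nearly level with each other, with coefficients of variation of 3.05% and 0.741%. The means were 6.91 ± 0.211 and 10.3 ± 0.0763 FPKM (mean ± SD of 3 libraries each), a 1.49-fold rise (log2 change 0.52, SE 0.053, adjusted p = 0.0159).

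Slc7a11, the light chain that imports cystine for glutathione synthesis in exchange for glutamate (chromosome 3, 50364936 to 50499087), moved the other way. It was at 4.35, 4.14 and 4.86 FPKM in WT and 2.45, 2.77 and 2.73 FPKM in FNcKO. Each FNcKO library lay well below each WT library. The means were 4.45 ± 0.375 and 2.65 ± 0.174 FPKM (mean ± SD of 3 libraries each), 1.68-fold lower in FNcKO (log2 change -0.58, SE 0.077, adjusted p = 0.0320). With every library set to the same FPKM total the log2 change was -0.38 (adjusted p = 0.268), and -0.24 (adjusted p = 0.343) with the total taken without crystallins. It was the lowest log2 change among the 34 tested members, and Nars was the only other one whose FNcKO values all lay below WT.

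Slc7a5 and Slc7a11 share a heavy chain, Slc3a2, which brings both to the cell surface (chromosome 19, 8706882 to 8723369). Slc3a2 was at 17.8, 20.1 and 21.8 FPKM in WT and 19.5, 20.0 and 18.4 FPKM in FNcKO (log2 change -0.04, SE 0.088, adjusted p = 0.872). The FNcKO libraries lay inside the WT range. Ratios within a library do not depend on the scaling between libraries. The ratio of Slc7a5 to Slc3a2 FPKM was 0.38, 0.356 and 0.313 in WT and 0.525, 0.517 and 0.561 in FNcKO, a log2 difference of 0.62. That of Slc7a11 to Slc3a2 was 0.245, 0.206 and 0.223 in WT and 0.126, 0.138 and 0.148 in FNcKO, a log2 difference of -0.71. Neither ratio overlapped between genotypes (exact two-sided permutation p = 0.1 for each, the smallest that 3 against 3 allows). Relative to the shared heavy chain, each FNcKO library had more Slc7a5 and less Slc7a11 RNA than each WT library. Both light chains had already passed the test, so the ratios are not separate support for those calls.

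Slc38a2, a sodium-coupled transporter of small neutral amino acids and a classical target of amino acid starvation, was nearly level across all 6 libraries in the deposited values. It was at 15.3, 15.3 and 15.3 FPKM in WT and 15.6, 15.5 and 15.5 FPKM in FNcKO, with SDs of 0.0371 and 0.0799 FPKM. Its log2 change of 0.02 had an SE of 0.050 and a 95% interval from -0.10 to 0.14 (adjusted p = 0.868), while it was 0.26 with the same FPKM total and 0.42 with the total taken without crystallins (adjusted p = 0.372 and 0.233). Its FNcKO values all lay above WT although the means differed 1.02-fold, so a lack of overlap alone can mark a very small difference. The neutral amino acid transporter Slc1a4 was at 1.07, 1.05 and 1.31 FPKM in WT and 1.94, 1.76 and 1.64 FPKM in FNcKO (log2 change 0.37, SE 0.089, adjusted p = 0.113). Slc6a9, the glycine transporter, was at 1.14, 0.762 and 1.09 FPKM in WT and 2.03, 1.55 and 1.45 FPKM in FNcKO (log2 change 0.42, SE 0.127, adjusted p = 0.177). Both lay higher in every FNcKO library, 1.55-fold and 1.68-fold by the means, without passing the test.

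The remaining transporters were below the filter. Slc7a1, a carrier of arginine and lysine, was at 0.445 ± 0.129 and 0.631 ± 0.0522 FPKM, and Slc1a5, a glutamine exchanger, at 0.245 ± 0.147 and 0.389 ± 0.106 FPKM (mean ± SD of 3 libraries each).

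The enzymes of amino acid synthesis showed no call in limma's test, with 0 of 6 tested at an unadjusted p under 0.05 and a median log2 change of 0.08. With 18.1% of all genes at that p, a count of 0 in 6 genes is near the background. The serine pathway was the most abundant part. Phgdh, which takes the first step from glycolysis to serine, was at 27.7, 32.2 and 32.7 FPKM in WT and 24.2, 31.3 and 26.9 FPKM in FNcKO (log2 change -0.17, SE 0.116, adjusted p = 0.517). Psat1, which takes the next step, was at 11.3, 11.1 and 11.6 FPKM in WT and 12.4, 12.3 and 12 FPKM in FNcKO (log2 change 0.10, SE 0.053, adjusted p = 0.398). The Psat1 groups did not overlap, but its 95% interval ran from 0.978 to 1.17 times the WT level. Psph, the phosphatase of the last step, was at 2.77 ± 0.487 and 2.73 ± 0.154 FPKM (mean ± SD of 3 libraries each; adjusted p = 0.977). The log2 changes of the 3 steps did not share a sign.

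In the mitochondrial folate pathway that serine feeds, Shmt2 was at 6.30, 6.91 and 7.93 FPKM in WT and 7.09, 9.87 and 9.39 FPKM in FNcKO (log2 change 0.28, adjusted p = 0.364), and Mthfd2 was at 6.32 ± 0.195 and 6.67 ± 0.516 FPKM (mean ± SD of 3 libraries each; adjusted p = 0.673). Aldh18a1, which begins proline synthesis, was at 4.35, 5.01 and 4.32 FPKM in WT and 4.87, 6.96 and 5.10 FPKM in FNcKO (adjusted p = 0.402). Groups overlapped for all 3 genes. Pycr1, which completes proline, was at 0.262 ± 0.0588 and 0.234 ± 0.112 FPKM, below the filter. Asns, the asparagine synthetase and a textbook Atf4 target, was also below it, at 0.643, 0.639 and 0.516 FPKM in WT and 0.583, 0.644 and 0.4 FPKM in FNcKO. The Asns values of the 2 genotypes overlapped, and Atf4 RNA was higher in the same FNcKO libraries.

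The tRNA synthetases, which join amino acids to their transfer RNAs, leaned to higher values in FNcKO. All 12 were above the filter, and 11 of the 12 (91.7%) had log2 changes above 0, against 39.7% of all genes tested. Their median was 0.13. Tars, for threonine (chromosome 15, 11383663 to 11399658), passed the test. It stood at 5.57, 5.09 and 5.20 FPKM in WT and 7.06, 8.17 and 7.73 FPKM in FNcKO, so that each FNcKO library lay above each WT library. The means were 5.28 ± 0.251 and 7.65 ± 0.558 FPKM (mean ± SD of 3 libraries each), a 1.45-fold rise (log2 change 0.46, SE 0.072, adjusted p = 0.0442).

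Lars, for leucine (chromosome 18, 42202344 to 42262189), had the largest log2 change of the 34 tested members as deposited and lay just outside the threshold. Atf4 exceeded it with quantile normalization (0.70 against 0.66) and with the total taken without crystallins (1.014 against 1.006). Atf4 also did so without WT replicate 1 (0.65 against 0.61), FNcKO replicate 2 (0.614 against 0.555) or FNcKO replicate 3 (0.620 against 0.616). Cebpb exceeded Lars without WT replicate 2 (0.566 against 0.563), and Slc6a9 did with a pseudocount of 0.1 (0.70 against 0.69). Lars was at 6.45, 5.97 and 7.33 FPKM in WT and 9.52, 11.8 and 10.7 FPKM in FNcKO, 1.62-fold by the means (log2 change 0.62, SE 0.103, adjusted p = 0.0504). The FNcKO libraries all lay above WT. Lars passed with a pseudocount of 0.1 (adjusted p = 0.046), with genes of at least 5 FPKM only (0.0364), with median-ratio scaling (0.0218), with quantile normalization (0.0285) and with complete rows only (0.0481). It did not pass without the filter on low values (0.103), with the same FPKM total (0.0960) or with the total taken without crystallins (0.0905). Nor did it pass with a replicate block (0.194) or with any 1 library left out (0.0727 to 0.179). The pseudogene row Rps19-ps4 lies inside the Lars row, with means of 14.9 FPKM in WT and 13.0 FPKM in FNcKO.

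Yars, for tyrosine, was at 3.31, 4.10 and 4.43 FPKM in WT and 5.34, 6.13 and 5.17 FPKM in FNcKO (log2 change 0.41, SE 0.109, adjusted p = 0.141). Cars, for cysteine, was at 7.02, 8.61 and 9.21 FPKM in WT and 10.7, 11.2 and 10.6 FPKM in FNcKO (log2 change 0.36, SE 0.101, adjusted p = 0.160). Neither passed the test over all genes, though neither overlapped between genotypes. Eprs, the enzyme for glutamate and proline and the most abundant synthetase of the 12, was at 12.6, 12.6 and 12.4 FPKM in WT and 13.7, 14.8 and 13.1 FPKM in FNcKO (log2 change 0.14, SE 0.064, adjusted p = 0.338). Gars, for glycine, was at 10.4, 11.6 and 13.0 FPKM in WT and 11.9, 13.1 and 10.5 FPKM in FNcKO (log2 change 0.02, SE 0.110, adjusted p = 0.943). The Gars groups overlapped almost fully.

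The other synthetases had small log2 changes. Iars, Mars, Wars, Aars and Sars, for isoleucine, methionine, tryptophan, alanine and serine, lay between 0.04 and 0.17 (adjusted p from 0.360 to 0.786). Nars, for asparagine, was the exception in direction, at 8.38, 7.98 and 8.44 FPKM in WT and 6.50, 7.71 and 7.73 FPKM in FNcKO (log2 change -0.16, SE 0.080, adjusted p = 0.362), and its log2 change was 0.06 with the same FPKM total in every library and 0.22 with the total taken without crystallins. Summed over the 12 synthetases, FPKM was 73.5, 75.6 and 79.9 in WT and 85.5, 94.7 and 87.3 in FNcKO. The sums did not overlap between genotypes. Those of the regulators, mostly Nupr1, did not overlap either (563.4 to 583.4 FPKM in WT and 590.1 to 606.2 FPKM in FNcKO). The sums of the transporters and of the synthesis enzymes overlapped.

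As deposited, most synthetases outside the Atf4 set had log2 changes below 0, as did most of all genes tested (39.7% above 0). Of all genes, 79.8% were above 0 with the same FPKM total and 90.6% with the total taken without crystallins. Of 11 other cytosolic synthetases and scaffold proteins of the multi-synthetase complex, 2 had log2 changes above 0, with a median of -0.12, while 8 and 10 were above 0 with the same FPKM total and with the total taken without crystallins. None passed limma's test, with 3 at an unadjusted p under 0.05, all lower, where 1.89% of all genes passed and 11.4% were lower at that p. Dars, for aspartate, was at 10.5, 10.5 and 10.2 FPKM in WT and 7.80, 7.20 and 6.07 FPKM in FNcKO (log2 change -0.52, SE 0.092, adjusted p = 0.0605), and the scaffold Aimp1 was at 25.9 ± 1.26 and 20.7 ± 2.54 FPKM (mean ± SD of 3 libraries each; adjusted p = 0.196). Of 17 mitochondrial synthetases, 7 were tested and 2 (28.6%) had log2 changes above 0, near the share of all genes, with a median of -0.03. With quantile normalization 4 were above 0, with the same FPKM total 5 and with the total taken without crystallins 6. Iars2 was at 2.45 ± 0.195 and 3.08 ± 0.160 FPKM (mean ± SD of 3 libraries each; adjusted p = 0.171). Lars2 had no value in WT replicate 2 and was listed at 10620 FPKM (mean, n = 2) and 7748 FPKM (mean, n = 3), far above its family (adjusted p = 0.259). Whether the fragments in that row came from Lars2 messenger RNA was not tested. The difference between the lists was not tested, and the lists were chosen with earlier results of these data known. Relative to the median of all genes, the 12 synthetases stood 0.18 to 0.19 higher and the 11 other cytosolic genes 0.03 to 0.08 lower under the 5 scalings between libraries, although the unadjusted median of the latter was above 0 (0.10 and 0.26) under those 2 totals. Scalings other than quantile normalization move all genes nearly alike, so these distances could hardly change under them.

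**Figure D3:**
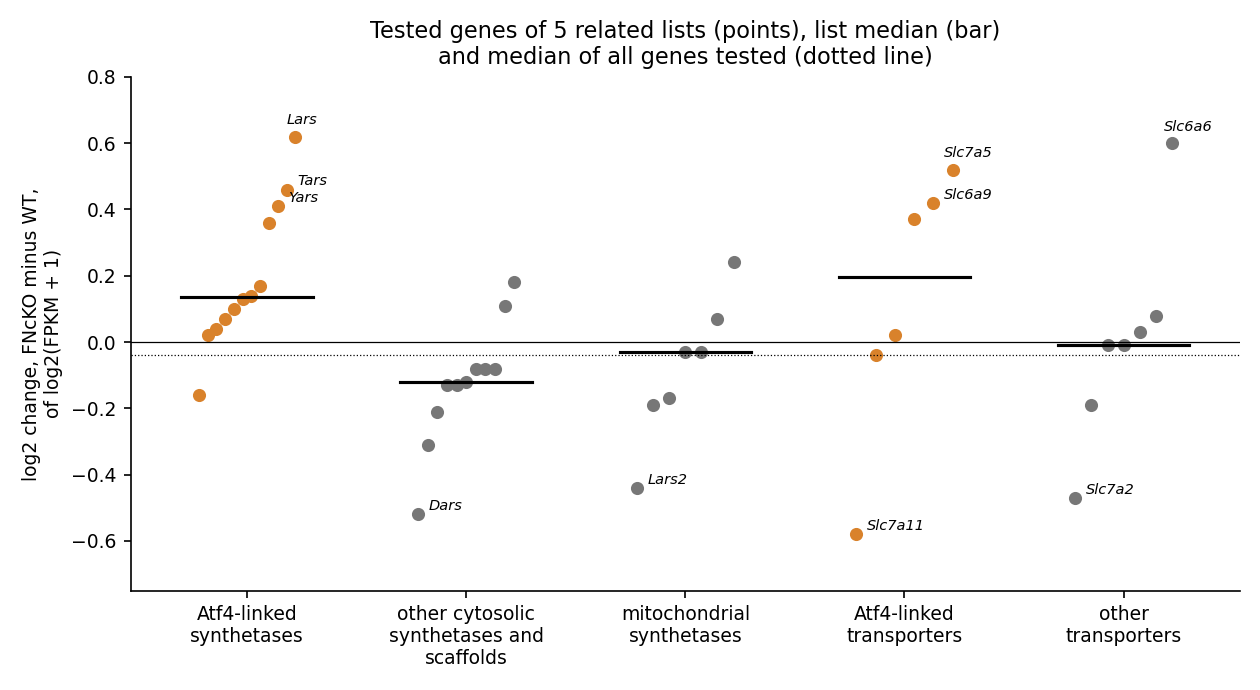
Log2 change (FNcKO minus WT, of log2(FPKM + 1), vertical axis) of the tested genes of 5 lists, with the members in orange, related genes in grey, list medians as bars and the median of all genes as a dotted line; genes beyond 0.4 in either direction are named. Of the 12 Atf4-linked synthetases 11 lie above 0 and of the 11 other cytosolic genes 2 do in the deposited values, while 8 and 10 of the latter do with the same FPKM total and with the total taken without crystallins. The shares of all genes tested above 0 are 39.7% as deposited and 79.8% and 90.6% with the 2 totals.

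The other genes of the pathway held no call. Across 8 lists with 96 tested genes, 0 passed limma's test, 7 were higher and 10 lower at an unadjusted p under 0.05, and the median log2 change was -0.01. Of all genes tested, 1.89% passed and 6.74% were higher and 11.4% lower at that p, so these counts are near the background. Among the upstream kinases, Eif2ak4 (Gcn2, the sensor of uncharged transfer RNA) was at 1.52 ± 0.132 and 1.44 ± 0.139 FPKM, and Eif2ak3 (Perk, the sensor of misfolded protein) at 1.08 ± 0.193 and 1.22 ± 0.269 FPKM (mean ± SD of 3 libraries each; adjusted p = 0.812 and 0.775). In that list of 15 kinases, eIF2 and eIF2B genes, 3 (20.0%) had log2 changes above 0, against 39.7% of all genes tested. The smallest adjusted p was 0.275, for Eif2ak2 (log2 change -0.24), followed by 0.307 for Eif2ak1 (-0.20). With the same FPKM total 13 of the 15 were above 0, and with the total taken without crystallins all 15 were. The shares of all genes were then 79.8% and 90.6%. Kinase activity is set by their ligands and is not measured here.

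In the Atf6 and Xbp1 arms of the unfolded protein response, the median log2 change of 16 genes was 0.04. The chaperone Hspa5 was at 39.6, 40.0 and 41.2 FPKM in WT and 35.6, 41.6 and 32.2 FPKM in FNcKO (adjusted p = 0.510), with WT inside the FNcKO range. Herpud1, a degradation factor, was at 14.9 ± 1.63 and 19.1 ± 2.54 FPKM (mean ± SD of 3 libraries each; adjusted p = 0.231), and Creld2 had a log2 change of -0.27 (adjusted p = 0.375). Other stress genes linked to Atf4 had a median of 0.07 over 9 genes, with the growth factor Vegfa at 3.62 ± 0.374 and 4.68 ± 0.620 FPKM and Ndrg1 at 209.2 ± 3.71 and 233.7 ± 3.81 FPKM (mean ± SD of 3 libraries each; adjusted p = 0.225 and 0.241). Fgf21, a secreted hormone of this response, was listed at 0 in every library, and Atf3 and Gdf15 lay below the filter.

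Transporters outside the member list had a median log2 change of -0.01 over 7 genes. The taurine carrier Slc6a6 was at 17.5 ± 3.49 and 26.7 ± 2.84 FPKM, and the arginine carrier Slc7a2 at 19.1 ± 0.676 and 13.6 ± 2.53 FPKM (mean ± SD of 3 libraries each; adjusted p = 0.134 and 0.141). Of 15 other amino acid and folate enzymes, 11 (73.3%) had log2 changes above 0, against 39.7% of all genes tested, with a median of 0.10. Their median stood 0.14 to 0.15 above that of all genes under the 5 scalings between libraries. For the member enzymes of amino acid synthesis that distance was 0.12 to 0.17. Such distances can hardly change with scalings that move all genes nearly alike. The 2 with the smallest p, Mthfd1 and Oat, had log2 changes of -0.20 and -0.18 (limma adjusted p = 0.208 and 0.225). Among 16 genes of mTORC1 and amino acid sensing the median was 0.00, with Lamtor4 at 0.36 and Sesn3 at -0.27 (adjusted p = 0.132 and 0.136).

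Among the libraries, FNcKO replicate 2 held the highest value of the 6 for 13 of the 34 tested members, FNcKO replicates 1 and 3 for 7 each, WT replicate 3 for 6 and WT replicate 2 for 1. WT replicate 1 held it for 0. The same counts over all genes tested are not given, so these cannot be read as a trait of the members. The members highest in FNcKO replicate 2 included Ddit3, Ddit4, Shmt2, Aldh18a1 and Lars. Among these, Ddit3, Ddit4 and Aldh18a1 varied by 20.4% to 23.1% (coefficient of variation) between FNcKO libraries. Atf4 was highest in FNcKO replicate 1 and varied by 4.35% between FNcKO libraries. The members above were named because replicate 2 was their highest library, so their order cannot be set against that of Atf4.

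Each of the 4 calls was marginal with fewer libraries. With any 1 library left out, Atf4 stood at adjusted p from 0.0727 to 0.127, Slc7a11 from 0.0786 to 0.139 and Tars from 0.0705 to 0.170, and Slc7a5 stood from 0.0490 to 0.0972, passing without FNcKO replicate 1 alone. Their log2 changes kept their direction, at 0.54 to 0.65, -0.62 to -0.52, 0.42 to 0.51 and 0.50 to 0.54. With the same FPKM total Atf4 passed alone (adjusted p = 0.0476), at a log2 change of 0.84, and with the total taken without crystallins no member passed. The difference between the 2 medians moved little with the scaling, unlike that between the shares above 0. Median-ratio scaling and the 2 totals divide each library by a single number, which moves all log2 changes nearly alike. Under them that difference could hardly change, so its steadiness is no check of the lean. The median of the members exceeded that of all genes by 0.20 as deposited and with median-ratio scaling, by 0.22 with quantile normalization and the same FPKM total, and by 0.21 with the total taken without crystallins. Over the same scalings the median of all genes moved from -0.04 to 0.29.

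**Figure D4:**
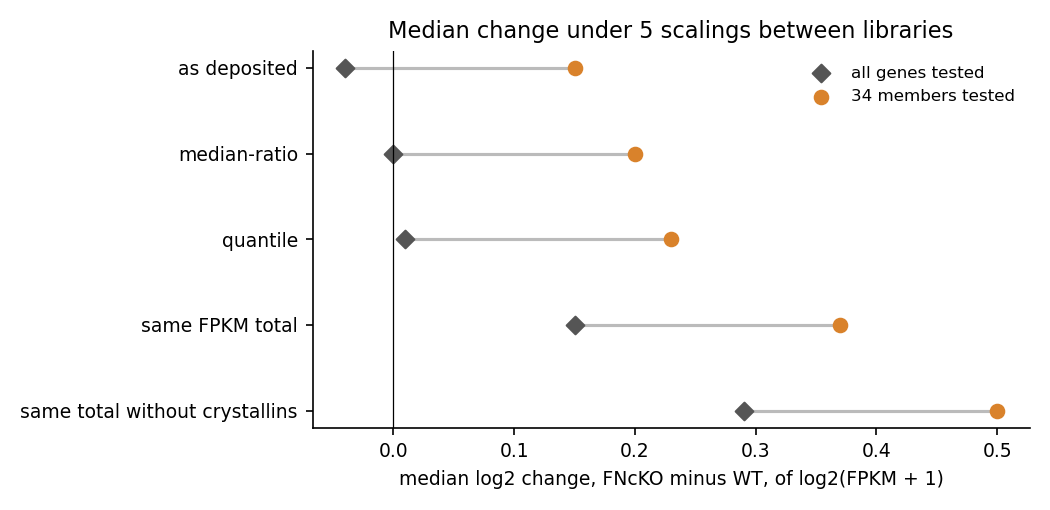
Median log2 change (FNcKO minus WT, of log2(FPKM + 1), horizontal axis) of all genes tested (grey diamonds) and of the 34 tested members (orange circles) under 5 scalings between libraries. Both medians shift together, and the members stand 0.20 to 0.22 to the right of all genes in each. All scalings but quantile normalization move all genes nearly alike, so the steady distance is no check of the lean.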

How the data were processed

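The authors deposited 1 table of FPKM values with a column for each library. The tools were FastQC, cutadapt 1.12, TopHat2 2.1.0 and Cuffdiff 2.2.1, with mm10 and GRCm38.p5 as builds, per the submitters' processing notes. The sources used here do not give the annotation, the strand setting, the treatment of multi-mapped fragments or the scaling between libraries. Overlapping rows, which 13 members have, and near-identical copies are therefore uncertain. WT replicate 2 has no value in 3578 rows (8.63%), none of them a member, and 1 unreadable value was treated as missing. Starts are given 1-based.

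From the FPKM values, log2(FPKM + 1) was fitted with limma 3.58.1 in R 4.3.3 (trend, two-sided) over the 10149 genes whose mean reached 1 FPKM, with Benjamini-Hochberg adjustment and a threshold of 0.05. Log2 changes on this scale understate the change of low genes; folds are ratios of mean FPKM. The design text calls the samples biological replicates. The fit was tested on simulated data. Depth was estimated from low values of single-exon genes, with lengths reduced by 200 bases. Alternatives were the pseudocount, the filter, the scaling between libraries, complete rows, a replicate block and leaving out each library. Named in full were Atf4, members with an unadjusted p under 0.05 and the 2 most abundant of each group, and of each pathway list the 2 genes with the smallest p; Eif2ak3, Eif2ak4, Hspa5, Fgf21, Atf3 and Gdf15 were added after their values were seen. The members and lists were chosen with earlier results of these data known.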

Additional observations from a re-analysis of the deposited data

How the results depend on the processing

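As deposited, 192 genes and 4 members passed. The counts were 101 and 1 without the filter on low values, 89 and 1 with the same FPKM total, 86 and 0 with that total taken without crystallins, and 37 to 117 and 0 to 1 with 1 library left out; the fits without a library or without the filter have fewer samples or more genes. Counts with a pseudocount of 0.1, genes of at least 5 FPKM, median-ratio scaling, quantile normalization or complete rows stayed within 1.5 times. The replicate block left 14 genes and 0 members. Same-numbered libraries did not deviate together over the genes (r = -0.027, -0.055 and -0.046). With 3 libraries in each genotype these correlations cannot exclude a shared preparation. Members not past the test changed sign in places. With the same total and with the total without crystallins, log2 changes were 0.061 and 0.179 (Cebpg), 0.163 and 0.313 (Eif4ebp1), 0.079 and 0.25 (Phgdh), 0.177 and 0.308 (Psph), 0.204 and 0.372 (Slc3a2), and 0.064 and 0.221 (Nars). Psph and Slc3a2 stood at 0.028 and 0.011 with median-ratio scaling and 0.031 and 0.055 with quantile normalization. With 1 library left out, log2 changes ran from -0.01 to 0.033 (Nupr1), -0.177 to 0.041 (Eif4ebp1), -0.117 to 0.066 (Psph), -0.111 to 0.03 (Slc3a2), -0.051 to 0.097 (Gars) and -0.004 to 0.072 (Sars). The share of calls that were higher was 45.3% as deposited, 57.9% with median-ratio scaling, 60.4% with quantile normalization, and 70.8% and 76.7% with the 2 totals. The cause of these shifts was not tested.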
